A study of Homo sapiens with 18 samples.

Results

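The genes of 7 membrane and membrane-associated peptidases were followed in human mammary epithelial lines: MME, ECE1, ANPEP, DPP4, ENPEP, LNPEP and ERAP1. They were chosen by name, and each was read by the probe set with the highest mean of log2(intensity + 1), with the gene's other probe sets as a check. Of the 7 genes, 6 had a probe set among the 19775 genes measured, and 4 (MME, ANPEP, ECE1 and ERAP1) lay above the background level and were tested among 12171 genes. LNPEP was not analysed here, since no probe set was named for it alone.

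The samples were 18 Affymetrix HG-U133 Plus 2.0 arrays in 9 groups of 2. M1B26 cells came from MCF10A cells sorted for the BMP receptor BMPR1B, exposed for a long time to BMP2 and IL6 and expanded from soft-agar clones. MC26 cells came from unsorted MCF10A cells exposed to the same factors. The study reports that BMPR1B-sorted cells transformed faster, within a few weeks, so the length of exposure may differ between the derived lines. Both derived lines were kept in BMP2 and IL6, whereas MCF10A-CT was the control line in standard medium. The labels give IL6 at 10 ng/ml and BMP2 at either 5 or 10 ng/ml. Every line was profiled after flow sorting for membrane CD10 into CD10+ and CD10- cells, and unsorted. All 3 lines share the MCF10A background, a non-malignant fibrocystic mammary line with CDKN2A deleted and MYC amplified, so they stand for 1 genetic origin. The 2 arrays of a group are labelled as biological replicates, and p-values measure the spread between them.

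These enzymes sit on the cell surface or in the secretory pathway and cut small peptides. MME (CD10, neprilysin) and ECE1 belong to a family of zinc endopeptidases: MME degrades enkephalins, tachykinins, natriuretic peptides and endothelin, and ECE1 releases active endothelin from its precursor. ANPEP (CD13) and ENPEP trim single residues from the amino end of peptides, angiotensins among them. DPP4 (CD26) removes dipeptides from chemokines and incretins. ERAP1 works inside the endoplasmic reticulum, where it shortens peptides for presentation on MHC class I. In the normal breast CD10 marks myoepithelial cells.

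The members called in the comparisons that follow, MME and ANPEP, are shown with the RefSeq windows (GRCh38.p14) that run from 250 bases before to 50 bases after an annotated transcription start. MME lies on chromosome 3 at chr3:155024202-155183729, and the first of its 4 windows is chr3:155079422-155079721 on the plus strand. ANPEP lies at chr15:89784895-89814852 on the minus strand and has 2 annotated starts far apart, with windows chr15:89814803-89815102 (upstream) and chr15:89806579-89806878 (downstream). As background, the upstream start of ANPEP is known from myeloid cells and the downstream start from intestinal epithelium. Capitals mark GGGCGG on either strand, the GC box.
MME, first window: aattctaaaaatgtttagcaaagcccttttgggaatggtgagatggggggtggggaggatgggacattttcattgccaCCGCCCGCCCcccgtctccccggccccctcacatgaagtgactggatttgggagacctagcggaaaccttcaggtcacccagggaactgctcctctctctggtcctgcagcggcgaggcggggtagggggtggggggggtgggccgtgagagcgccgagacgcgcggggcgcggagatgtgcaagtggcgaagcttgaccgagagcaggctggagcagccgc
ANPEP, upstream window: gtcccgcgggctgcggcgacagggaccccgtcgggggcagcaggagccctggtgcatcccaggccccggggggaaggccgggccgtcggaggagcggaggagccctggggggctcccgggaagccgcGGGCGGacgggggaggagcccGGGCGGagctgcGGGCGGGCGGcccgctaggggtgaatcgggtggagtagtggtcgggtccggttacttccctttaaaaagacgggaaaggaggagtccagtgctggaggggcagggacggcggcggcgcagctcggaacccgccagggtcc
ANPEP, downstream window: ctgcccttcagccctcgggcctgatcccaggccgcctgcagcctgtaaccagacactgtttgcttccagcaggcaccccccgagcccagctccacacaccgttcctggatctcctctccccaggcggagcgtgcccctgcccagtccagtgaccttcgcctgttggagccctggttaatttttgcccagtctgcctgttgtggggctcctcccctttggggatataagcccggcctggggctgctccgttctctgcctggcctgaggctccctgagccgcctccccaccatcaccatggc
The GC box occurred in 45% of the 35116 human windows of 300 bases. The 4 MME windows, the first 3 of which overlap their neighbours, held 2, 3, 2 and 0 matches, and the ANPEP windows held 4 upstream and 0 downstream. Neither gene's windows held the STAT motif TTCNNNGAA (found in 7.66% of all windows) or the SMAD motif GGCGCC (19.2%), both searched on both strands. A match describes these letters alone, and the arrays did not tell the starts of either gene apart.

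The labelled cell type was checked against its markers. The basal markers KRT5, KRT14, CDH3, ITGA6 and LAMB3 and the epithelial markers CDH1, EPCAM, KRT8, KRT18 and CLDN7 were above background on 18 of 18 arrays, while KRT19 was so on 1. Markers of other cell types were mixed. PTPRC (leukocyte), CDH5 and VWF (endothelium) and COL3A1 and PDGFRA (fibroblast) were at background on all arrays, whereas CD14 and CD79A, PECAM1, and COL1A1 and DCN of the same 3 lists were above it on 18 of 18, ITGAM on 17 and TEK on 14. CD14 read 129 to 445. Any pair of arrays correlated at 0.865 to 0.985, and the arrays of a group at 0.949 to 0.979. Levels are MAS5 intensities on a linear scale, and differences are on the log2(intensity + 1) scale with SEs from limma, which understates changes of dim genes. The background level was an intensity of 14.3.

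MME, the gene of the sorted antigen, served first as a check of the sort. In M1B26 it read 1269 and 1021 in CD10+ cells, against 56.4 and 15.9 in CD10- cells. In MC26 it read 69.8 and 90.7 in CD10+ cells, against 27.8 and 6.39 in CD10- cells. In MCF10A-CT it read 48.3 and 65.0 in CD10+ cells, against 9.73 and 11.3 in CD10- cells. All CD10+ arrays of a line thus lay above both of its CD10- arrays, and the CD10- arrays of MCF10A-CT and 1 of MC26 were under the background level.

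**Figure D1:**
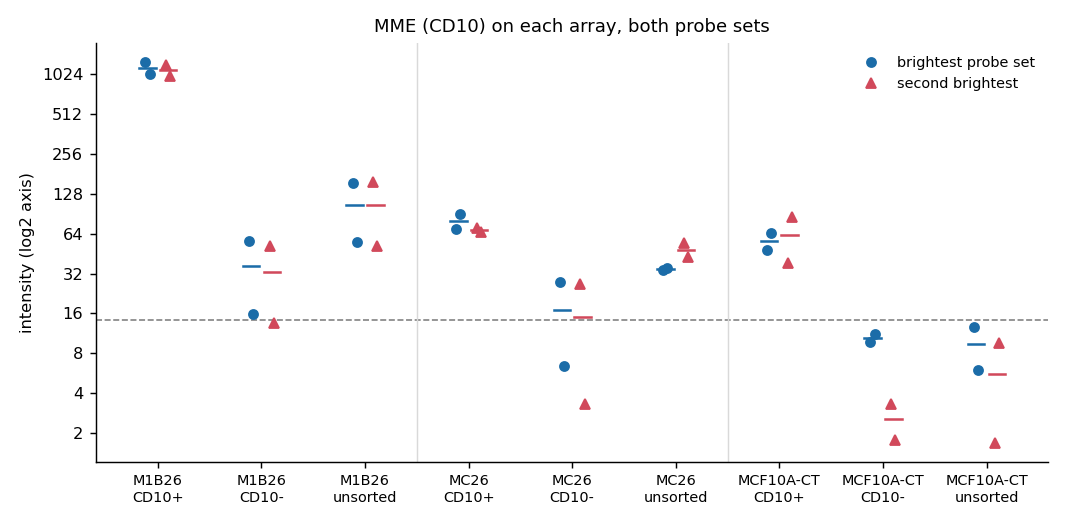
MME intensity (log2 axis) on each array for both of its probe sets, in the 9 groups, with points for arrays, short lines for group means of 2 arrays and a dashed line at the background intensity of 14.3. Both probe sets place the M1B26 CD10+ arrays highest, at 986 to 1269.

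The CD10+ minus CD10- difference of MME was 5.19 ± 0.64 in M1B26 (adjusted p = 1.28e-04), and MME was the 1 member called of the 4 tested, where 6.5% of all tested genes were called. Over the 3 lines together the difference averaged 3.32 ± 0.37 (adjusted p = 3.37e-04), again with 1 of 4 members called against 1.14% of all genes. Neither MC26 (2.46 ± 0.64) nor MCF10A-CT (2.31 ± 0.64) gave a call for MME on its own. In those lines limma called 0% of all genes, with 100 genes in MC26 and 166 in MCF10A-CT at an unadjusted p under 0.05, and MME was the 1 member of 4 among them in each. Without M1B26 the average was 2.39, which did not pass (adjusted p = 1.00). With the line-by-replicate pair as a block on the 12 sorted arrays, both differences passed (adjusted p = 5.96e-12 in MC26 and 7.68e-11 in MCF10A-CT), where that fit called 0.173% and 0.641% of all genes. That fit had 3 residual degrees of freedom and took its variances wholly from the trend over intensity. Since the sort was on CD10, these differences check the labels and are no finding; MME is also in the signature that the study derived from these sorted MCF10A-CT arrays.

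The size of the difference could still be compared between lines. M1B26 exceeded MCF10A-CT in its MME difference by 2.88 ± 0.90 (adjusted p = 0.173) and exceeded MC26 by 2.73 ± 0.90 (adjusted p = 0.207). Between MC26 and MCF10A-CT the 2 differences were 0.15 apart, with a 95% interval of -1.77 to 2.07. Limma thus called 0 of 4 members in each of these 3 comparisons, where 1.38%, 1.27% and 0% of all genes were called; 2, 2 and 0 members were at an unadjusted p under 0.05, as were 83 genes in all for MC26 against MCF10A-CT. Under the pair block MME passed in both comparisons that hold M1B26 (adjusted p = 1.71e-09 and 1.47e-08), and that fit called 11.5% and 10.9% of all genes there. The call on this comparison therefore turned on the fit. Where each line was gated and how pure its sorted cells were cannot be told apart here from MME RNA per cell.

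Among CD10+ cells, MME stood apart in M1B26. Its 1269 and 1021 exceeded MC26 by 3.82 ± 0.64 (adjusted p = 0.00129) and MCF10A-CT by 4.32 ± 0.64 (adjusted p = 3.76e-04). CD10+ cells of MC26 and MCF10A-CT differed by 0.50, with an interval of -0.86 to 1.86 (adjusted p = 0.640), and their arrays did not overlap with this probe set. With the second they did, at 70.9 and 66.2 in MC26 against 38.3 and 85.8 in MCF10A-CT. Among CD10- cells, the M1B26 arrays were 1.44 ± 0.64 above MCF10A-CT, which did not pass (adjusted p = 0.106). The second MME probe set, with 51.9 and 13.4 in M1B26 CD10- cells against 3.31 and 1.78 in MCF10A-CT, gave 2.997 ± 0.83 there and passed (adjusted p = 0.0175) when all probe sets were tested singly, where 23.3% of them were called.

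In unsorted cells, MME read 156 and 55.0 in M1B26, 34.0 and 35.5 in MC26, and 12.7 and 5.95 in MCF10A-CT. The arrays of the 3 lines did not overlap with this probe set, whereas with the second M1B26 (158 and 51.6) and MC26 (54.4 and 42.5) did. M1B26 exceeded MCF10A-CT by 3.26 ± 0.64 (adjusted p = 0.0247), the 1 call among the 4 members, where 0.674% of all genes were called. The call was lost without M1B26 replicate 1 (2.52, adjusted p = 0.312) or without MCF10A-CT replicate 1 (3.75, adjusted p = 0.0511) or 2 (2.77, adjusted p = 0.382). MC26 exceeded MCF10A-CT by 1.87 ± 0.64 (adjusted p = 0.354), and M1B26 exceeded MC26 by 1.39 ± 0.64 (adjusted p = 0.998). Neither gave a call for any of the 4 members, where 0.32% and 0.0986% of all genes were called and 2 and 1 members had an unadjusted p under 0.05. The 8 fibroblast markers summed to 1011 and 1023 in unsorted M1B26, against 148 and 180 in unsorted MCF10A-CT, with 3 and 5 of the 8 above background in M1B26 and 2 and 2 in MCF10A-CT. Of the 2 tested, 1 was called higher, and their median difference was 2.37; their part in the MME difference was not tested. In bulk samples, a larger share of CD10+ cells and more MME RNA per cell cannot be told apart.

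ANPEP was the brightest member with signal on 18 of 18 arrays, and its sorted M1B26 arrays stood above the rest. In M1B26 it read 4677 and 5162 in CD10+ cells, 3427 and 3160 in CD10- cells, and 1800 and 2602 in unsorted cells. In MC26 it read 1700 and 1926 in CD10+ cells, 2208 and 1876 in CD10- cells, and 1593 and 1713 in unsorted cells. In MCF10A-CT it read 1443 and 1273 in CD10+ cells, 1348 and 1727 in CD10- cells, and 1545 and 1944 in unsorted cells. The 4 sorted M1B26 arrays were thus above all 14 others. In the order of group means, M1B26 CD10+ and M1B26 CD10- each stood apart from the next group, and every other neighbouring pair overlapped.

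**Figure D2:**
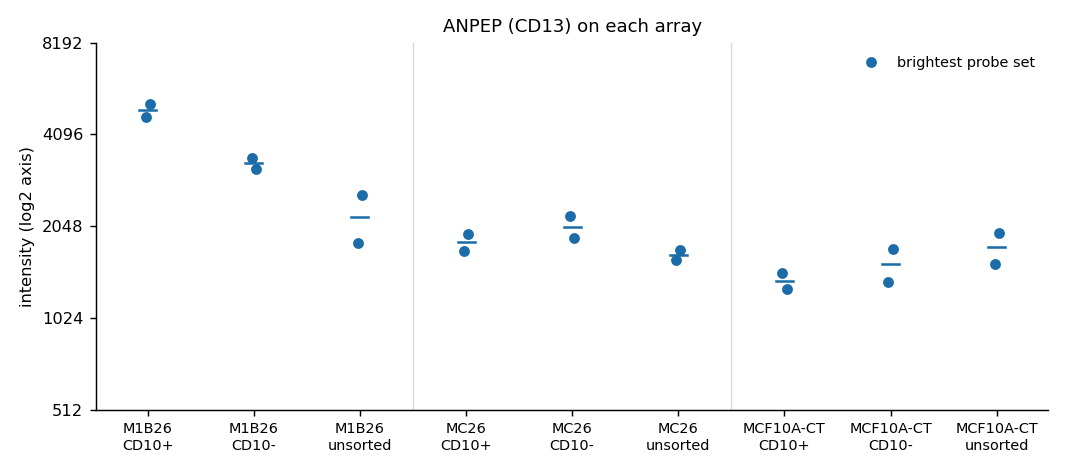
ANPEP intensity (log2 axis) on each array in the 9 groups, with points for arrays and short lines for group means of 2 arrays. The sorted M1B26 arrays, at 3160 to 5162, lie above the other 14.

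Among CD10+ cells, ANPEP in M1B26 exceeded MCF10A-CT by 1.86 ± 0.20 (adjusted p = 2.25e-05) and MC26 by 1.44 ± 0.20 (adjusted p = 2.94e-04). With MME this made 2 of 4 members called in each comparison, where 26.4% and 11.7% of all genes were called and the median of all genes was itself shifted by 0.31 and 0.20. Among CD10- cells, M1B26 exceeded MCF10A-CT by 1.11 ± 0.20 (adjusted p = 0.00167), the 1 of 4 members called, where 26.4% of all genes were called with a median shift of 0.23. Between M1B26 and MC26 in CD10- cells the difference was 0.69 ± 0.20 (adjusted p = 0.413), with 0 of 4 members called against 0.0822% of all genes. MC26 exceeded MCF10A-CT by 0.42 ± 0.20 in CD10+ cells (adjusted p = 0.169) and by 0.41 ± 0.20 in CD10- cells (adjusted p = 0.152). In these MC26 comparisons limma called 0 of 4 members, against 13.5% and 20% of all genes, with 0 and 1 member at an unadjusted p under 0.05. The 3 ANPEP calls held without any one array. Unsorted M1B26 cells exceeded unsorted MCF10A-CT cells by 0.32 ± 0.20 (adjusted p = 0.895) and unsorted MC26 cells by 0.39 ± 0.20 (adjusted p = 0.998). The line difference of ANPEP was thus called in sorted cells alone.

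Within a line, ANPEP gave no call with CD10 in the main fit. In M1B26 it was 0.58 ± 0.20 higher in CD10+ cells, with arrays that did not overlap, and this did not pass (adjusted p = 0.1003), though it did under the pair block (adjusted p = 0.0157, in a fit that called 21.1% of all genes). In MC26 and MCF10A-CT the difference was -0.17 in each, with intervals of -0.59 to 0.25. The difference in M1B26 exceeded that in MCF10A-CT by 0.75 ± 0.28 (adjusted p = 0.295) and that in MC26 by 0.75 ± 0.28 (adjusted p = 0.296), and under the pair block it passed against MCF10A-CT (adjusted p = 0.0488). In M1B26 the sorted cells exceeded the unsorted cells by 0.89 ± 0.17 (adjusted p = 0.00805), the 1 of 4 members called, where 4.21% of all genes were. Without M1B26 unsorted replicate 1 the value was 0.63 and no longer passed (adjusted p = 0.209). No member was called between sorted and unsorted cells in MC26, MCF10A-CT or the average over lines, where 0.822%, 22.2% and 15.2% of all genes were called and 0, 1 and 3 of 4 members had an unadjusted p under 0.05. Sorted cells also passed through staining and the sorter, and unsorted cells were frozen, so population and handling cannot be told apart in these contrasts. The other 2 ANPEP probe sets were above background on 1 and 0 of 18 arrays.

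ECE1 gave no call in the 20 comparisons. Its intensity ranged from 15.6 to 129 with a median of 66.8. In M1B26 it read 64.9 and 129 in CD10+ cells, against 67.1 and 71.6 in CD10- cells. In MCF10A-CT, CD10+ cells read 78.0 and 15.6, the lowest array of all, against 60.6 and 98.1 in CD10- cells, a difference of -1.11 ± 0.56 (adjusted p = 1.00). Without that low array, MCF10A-CT CD10+ replicate 2, the difference was 0.02. Under the pair block ECE1 passed in MCF10A-CT (adjusted p = 0.0295) and the CD10 difference of M1B26 exceeded that of MCF10A-CT by 1.504 (adjusted p = 0.00360), both comparisons holding that array.

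The second ECE1 probe set gave another picture of the sorted cells. In M1B26 it read 48.8 and 72.4 in CD10+ cells and 23.6 and 46.1 in CD10- cells, against 14.8 and 11.9 in unsorted cells. Sorted M1B26 cells were higher than unsorted cells by 1.67 ± 0.37 (adjusted p = 0.0128, among 7.02% of probe sets called), and the average over the lines was 0.99 ± 0.22 (adjusted p = 0.00464, among 20.3%). The brighter probe set gave 0.32 and -0.15 for the same contrasts. The 2 probe sets of ECE1 therefore differed on whether its RNA was higher after the sort, and no direction is given.

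**Figure D3:**
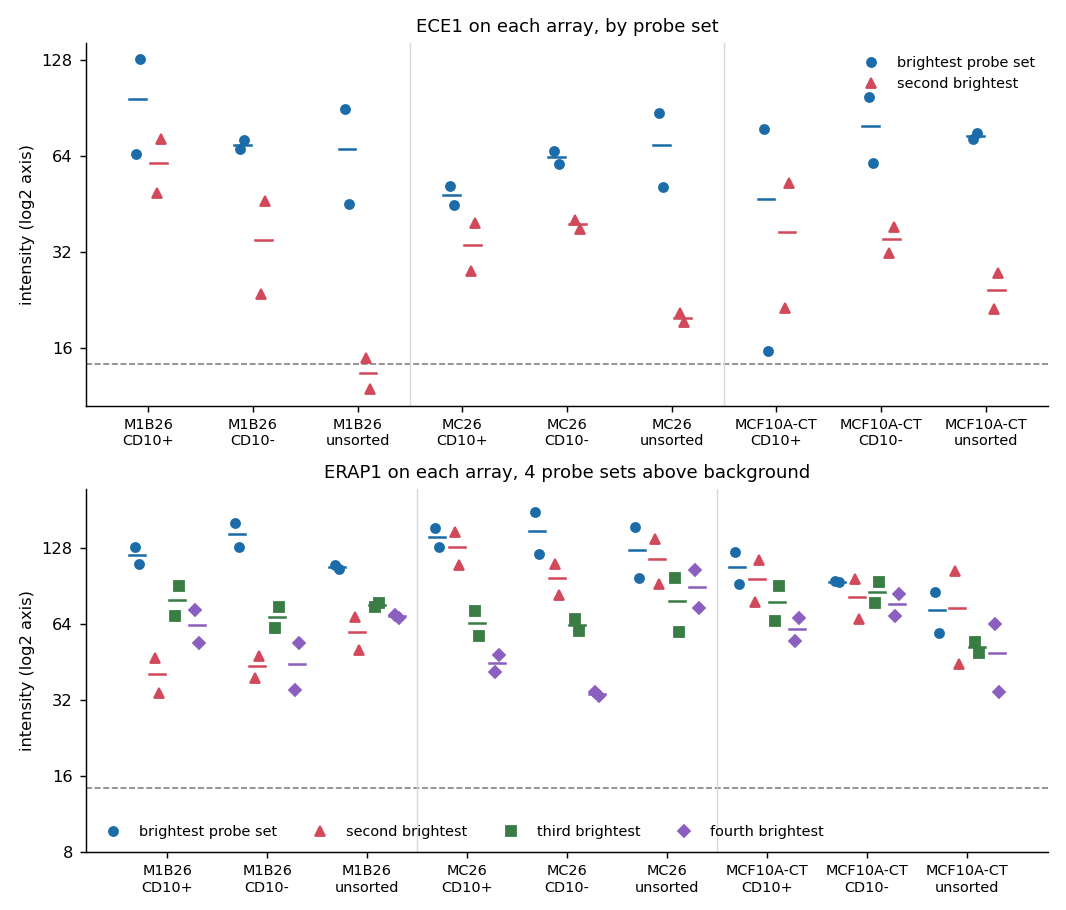
ECE1 (top, 2 probe sets) and ERAP1 (bottom, the 4 probe sets above background) on each array, as intensity on a log2 axis, with points for arrays, short lines for group means of 2 arrays and a dashed line at the background intensity of 14.3. For ERAP1, the second brightest probe set (triangles) reads 34.0 to 47.9 in the sorted M1B26 cells, where the brightest (circles) reads 111 to 162.

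ERAP1 was above background on 18 of 18 arrays, at 59.2 to 178, and gave no call with its brightest probe set. The 2 lowest arrays were the unsorted MCF10A-CT cells, at 59.2 and 86.0, against 97.5 and 155 in unsorted MC26 and 105 and 110 in unsorted M1B26. Unsorted MC26 exceeded unsorted MCF10A-CT by 0.78 ± 0.29 (adjusted p = 0.438), and unsorted M1B26 by 0.59 ± 0.29 (adjusted p = 0.737). With CD10 it differed by -0.27, -0.06 and 0.18 in M1B26, MC26 and MCF10A-CT, and the interval was -0.89 to 0.34 in M1B26. ERAP1 is also a member of the CD10+ signature drawn by the study from sorted MCF10A-CT cells, and its interval there was -0.43 to 0.80.

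The ERAP1 probe sets disagreed. The second brightest read 47.1 and 34.0 in M1B26 CD10+ cells, against 149 and 110 in MC26 and 78.2 and 115 in MCF10A-CT. It was lower in M1B26 by 1.65 ± 0.38 than in MC26 (adjusted p = 0.0125, among 10.3% of probe sets called) and by 1.23 ± 0.38 than in MCF10A-CT (adjusted p = 0.0303, among 24.7%). The brightest probe set gave -0.24 and 0.16 there. The fourth brightest was lower in MC26 than in MCF10A-CT among CD10- cells by 1.15 ± 0.33 (adjusted p = 0.0258, among 17.6%) and lower in sorted than in unsorted MC26 cells by 1.16 ± 0.28 (adjusted p = 0.0381, among 2.91%). The transcripts that each probe set reads were not resolved here.

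DPP4 and ENPEP were at the limit of the arrays. DPP4 ranged from 0.59 to 17.02 and was above background on 2 of 18 arrays, M1B26 CD10+ replicate 1 (17.02) and unsorted MCF10A-CT replicate 2 (15.8). It read 13.4 on the other M1B26 CD10+ array, against 6.03 and 11.9 in M1B26 CD10- cells. Its other 2 probe sets were above background on no array. ENPEP ranged from 0.14 to 8.88 and was above background on 0 of 18 arrays with either probe set. No order between groups is read from such values.

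**Figure D4:**
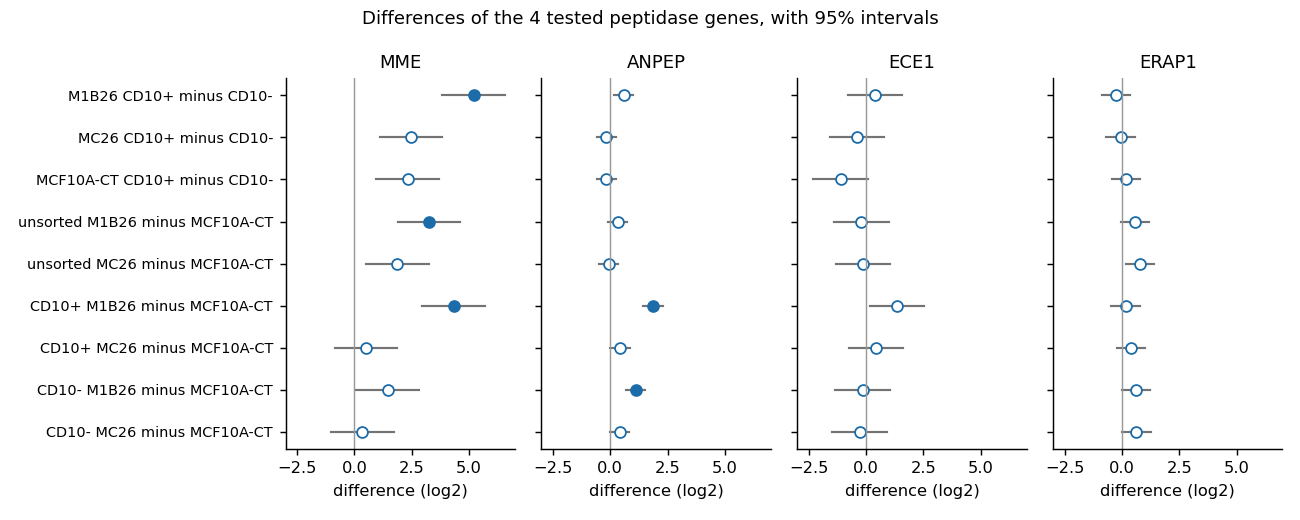
Differences on the log2(intensity + 1) scale for MME, ANPEP, ECE1 and ERAP1 in 9 comparisons, with 95% intervals from limma and filled points for an adjusted p under 0.05. Filled points appear for MME (3) and ANPEP (2), and none for ECE1 or ERAP1.

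Over the 9 groups, the means of the 4 tested members spanned 6.87 (MME), 1.86 (ANPEP), 1.35 (ECE1) and 1.03 (ERAP1) on the log2 scale. Across the 9 group means, Pearson's r was 0.68 between MME and ANPEP, 0.60 between ANPEP and ECE1 and 0.11 between MME and ECE1; the points share lines and populations, and these are descriptions. The genes whose group means ran most like MME were SDC2 (r = 0.958), which encodes a cell surface heparan sulfate proteoglycan, TCTN1 (0.952) and SNX21 (0.946). SDC2 averaged 246 in M1B26 CD10+ cells, against 10.8 in M1B26 CD10- cells. In all groups but M1B26 CD10+ its means were 7.39 to 20.8, near the background level, so it was high in that group alone. Those most like ANPEP were CYB5R3 (0.988), TMEM181 (0.981) and ARF4 (0.975). For ECE1 they were KIFC3 (0.960), HPX (0.912) and ATG4D (0.909), and for ERAP1 DPH3 (0.958), RHEBL1 (0.958) and INSC (0.952). Of 12170 genes, 23 had an r above 0.9 with MME, 191 with ANPEP, 5 with ECE1 and 18 with ERAP1.

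The neprilysin family held 5 tested genes of 7. With CD10 in M1B26, MME alone rose and none fell, where 6.5% of all genes were called. MME encodes the sorted antigen, so its rise checks the sort and is no finding about the family. The median over the 5, MME included, was 0.38, against 0.0081 over all genes, and 3 of the 5 were above 0. Besides MME, limma called ECE2 alone, a relative of ECE1, higher in CD10+ cells of MC26 than of MCF10A-CT by 1.01 ± 0.31 (adjusted p = 0.0413). ECE2 was the 1 of 5 genes called in that comparison, where 13.5% of all genes were called. It read 215 and 340 in MC26, against 171 and 105 in MCF10A-CT. That call was kept in 7 of the 18 fits that left out an array. Of the aminopeptidases of the ANPEP family, 8 of 12 were tested, and LTA4H, which makes leukotriene B4 and trims peptides in the cytosol, was lower in the sorted cells of both derived lines. Its group means were 2318 in M1B26 and 1956 in MC26 CD10+ cells, against 3592 in MCF10A-CT CD10+ cells. In unsorted cells they were 2651 in M1B26 and 2365 in MC26, against 2696 in MCF10A-CT, with no call for LTA4H. Among CD10+ cells it fell by 0.87 ± 0.23 in MC26 (adjusted p = 0.0200) and by 0.63 ± 0.23 in M1B26 (adjusted p = 0.0494). Leaving out each array in turn gave LTA4H values of -0.96 to -0.79 in MC26 and -0.74 to -0.53 in M1B26. The MC26 call was lost in some of those fits and the M1B26 call in most. In M1B26 against MCF10A-CT, ANPEP rose and LTA4H fell among CD10+ cells, 2 of 8 genes and near the 26.4% of all genes called there, and the median over the 8 was 0.09, against 0.31 over all genes. With CD10 in M1B26, none of the 8 was called, and their median was 0.11.

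FAP, the nearest relative of DPP4 and known from activated fibroblasts, was the called member of the dipeptidyl peptidase family that changed most, with 4 of 7 genes tested. In CD10- cells it read 457 and 620 in M1B26 and 217 and 225 in MC26, against 67.2 and 60.6 in MCF10A-CT. The difference from MCF10A-CT was 3.04 ± 0.52 in M1B26 (adjusted p = 0.00137) and 1.77 ± 0.52 in MC26 (adjusted p = 0.0289). The M1B26 call held without any one array. The MC26 call was lost without MC26 CD10- replicate 1 or 2 (adjusted p = 0.120 and 0.113) or without MCF10A-CT CD10- replicate 2 (adjusted p = 0.154). In CD10+ cells it read 386 and 255 in M1B26, against 138 and 86.9 in MCF10A-CT (1.51 ± 0.52, adjusted p = 0.0456), a call kept in 9 of the 18 fits. FAP is also in the signature drawn from CD10+ against CD10- MCF10A-CT cells, and the line comparisons share those arrays. In CD10- M1B26 against MCF10A-CT cells FAP was the 1 of 4 genes called, near the 26.4% of all genes called there, and the median over the 4 was 0.49, against 0.23 over all genes.

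**Figure D5:**
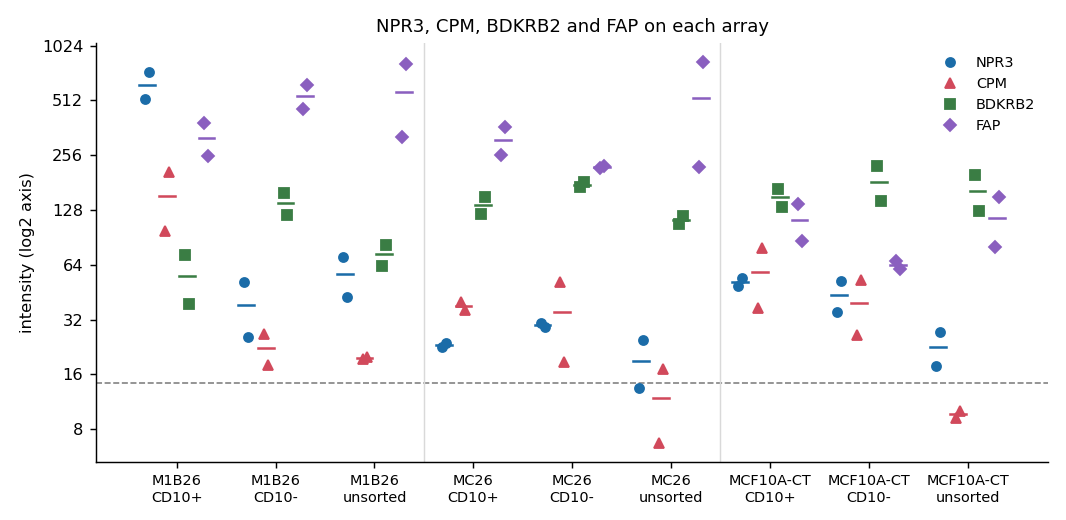
Intensity (log2 axis) of NPR3, CPM, BDKRB2 and FAP on each array in the 9 groups, with points for arrays, short lines for group means of 2 arrays and a dashed line at the background intensity of 14.3. NPR3 reads 518 and 731 in M1B26 CD10+ cells and at most 70.9 on any other array.

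Of the receptors of peptides that these enzymes cut, 6 of 24 were tested. NPR3, the receptor that clears natriuretic peptides, read 518 and 731 in M1B26 CD10+ cells, against 51.2 and 25.7 in M1B26 CD10- cells. The other lines read 22.7 to 54.2 in CD10+ cells and 29.2 to 52.1 in CD10- cells. NPR3 was thus high in 1 group of the 9, the group in which MME was highest. It rose by 4.05 ± 0.40 with CD10 in M1B26 (adjusted p = 1.92e-05). The NPR3 difference in M1B26 exceeded that in MC26 by 4.40 ± 0.57 (adjusted p = 0.00115) and that in MCF10A-CT by 3.79 ± 0.57 (adjusted p = 0.00392). The average over the lines, 1.32 ± 0.23 (adjusted p = 0.00996), rested on M1B26, since without that line it was -0.05 (adjusted p = 1.00).

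BDKRB2, the bradykinin B2 receptor, ran the other way. It read 72.1 and 38.8 in M1B26 CD10+ cells, against 159 and 120 in M1B26 CD10- cells, and fell by 1.37 ± 0.32 (adjusted p = 0.0179). The call was lost without M1B26 CD10- replicate 1 or 2 (adjusted p = 0.126 and 0.0503) or CD10+ replicate 2 (adjusted p = 0.235). Of the 6 receptors, 1 rose and 1 fell with CD10 in M1B26, where 6.5% of all genes were called, and their median difference was 0.99, against 0.0081 over all genes.

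Among 4 tested of 14 other ectopeptidases, CPM, a membrane carboxypeptidase that removes basic residues from the end of kinins, read 98.6 and 206 in M1B26 CD10+ cells, against 26.8 and 17.99 in M1B26 CD10- cells. It rose by 2.64 ± 0.56 (adjusted p = 0.00863), the 1 of the 4 called, where 6.5% of all genes were, and the median of the 4 was 0.57, against 0.0081 over all genes. The call was lost without M1B26 CD10- replicate 2 (adjusted p = 0.0922) or CD10+ replicate 2 (adjusted p = 0.135). CPM was also higher in sorted than in unsorted cells, by 1.72 ± 0.28 over the lines (adjusted p = 0.00113) and by 2.11 ± 0.49 in MCF10A-CT (adjusted p = 0.00769). In those contrasts 15.2% and 22.2% of all genes were called. CPM means were 58.3 in MCF10A-CT and 38.2 in MC26 CD10+ cells, against 39.6 and 35.1 in their CD10- cells and 9.68 and 11.9 unsorted. CPD, a carboxypeptidase of the trans-Golgi network, read 676 and 611 in M1B26 and 556 and 579 in MC26 CD10+ cells, against 1542 and 1719 in MCF10A-CT. It fell by 1.34 ± 0.33 in M1B26 (adjusted p = 0.01003) and by 1.52 ± 0.33 in MC26 (adjusted p = 0.0103). CPD was the 1 of 4 called in each comparison, where 26.4% and 13.5% of all genes were called. Leaving out each array in turn gave -1.42 to -1.26 in M1B26 and -1.60 to -1.44 in MC26. Neither call was kept in every such fit, and most of these fits left out an array of neither group compared. In MCF10A-CT, CPD was also 1.29 ± 0.29 higher in sorted than in unsorted cells (adjusted p = 0.00649). Unsorted cells did not repeat the line difference: CPD read 1184 and 645 in M1B26 and 1148 and 571 in MC26, against 718 and 611 in MCF10A-CT, with overlapping arrays, higher means in the derived lines and no call.

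Of 24 peptide precursors and substrates, 7 were tested. EDN1, the endothelin precursor that ECE1 activates and MME degrades, read 125 and 358 in M1B26 and 173 and 140 in MC26 CD10- cells, against 66.6 and 25.1 in MCF10A-CT. It was higher by 2.34 ± 0.59 in M1B26 (adjusted p = 0.0103) and by 1.90 ± 0.59 in MC26 (adjusted p = 0.0344). Leaving out each array in turn gave 1.58 to 3.09 and 1.21 to 2.58, and neither call was kept in every such fit. EDN1 was the 1 of 7 genes called in each of these CD10- comparisons, where 26.4% and 20% of all genes were called. The median of the 7 was -0.24 in CD10- M1B26 against MCF10A-CT cells, against 0.23 over all genes. In CD10+ cells EDN1 read 67.8 and 88.6 in M1B26 and 219 and 167 in MC26, against 63.0 and 33.6 in MCF10A-CT. It was higher by 2.03 ± 0.59 in MC26 (adjusted p = 0.0329) and gave no call in M1B26. The MC26 value was 1.59 to 2.48 with each array left out in turn, and its call was not kept in every such fit. In that MC26 comparison EDN1 was the 1 of 7 called, where 13.5% of all genes were called. Of the 9 tested genes of class I peptide loading, in which ERAP1 acts, HLA-B rose by 0.97 ± 0.24 (adjusted p = 0.0224) and HLA-C by 0.79 ± 0.21 (adjusted p = 0.0336) with CD10 in M1B26, and none fell, where 6.5% of all genes were called. The median over the 9 was 0.15, against 0.0081 over all genes. With each array left out in turn, HLA-B gave 0.71 to 1.22 and HLA-C 0.61 to 0.98. Neither call was kept in every such fit, and most of these fits left out an array of neither group compared. The HLA-B and HLA-C probe sets had similar means, 3401 and 3429 in M1B26 CD10+ cells and 1712 and 1960 in M1B26 CD10- cells. Whether they read separate transcripts was not resolved here.

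Markers of other cell types moved along with the M1B26 CD10+ group. The summed intensity of the 8 fibroblast markers was 5878 and 5866 in M1B26 CD10+ cells, against 403 and 352 in M1B26 CD10- cells, with 6 and 5 of the 8 above background on the CD10+ arrays and 3 and 5 on the CD10- arrays. The sums also rose in MCF10A-CT, to 578 and 529 in CD10+ cells, against 318 and 306 in CD10- cells. In MC26 they overlapped, at 168 and 399 in CD10+ cells, against 171 and 188 in CD10- cells. DCN reached 5162 on its highest array, a value that only the M1B26 CD10+ sums exceeded, so most of that array's sum was DCN alone. LUM reached 593 and COL1A1 317 on their highest arrays, while COL3A1 and PDGFRA stayed at background on all 18. Of the 2 tested fibroblast markers, 1 was called higher with CD10 in M1B26. DCN is also in the signature drawn by the study from CD10+ against CD10- MCF10A-CT cells. The 6 epithelial markers summed to 5019 and 5370 in M1B26 CD10+ cells, against 9415 and 9863 in M1B26 CD10- cells, and the 5 basal markers to 11138 and 10573, against 22599 and 18046. Of the 5 tested epithelial markers, 2 rose and 3 fell. Leukocyte markers summed to 225 and 278, against 478 and 434, and endothelial markers to 92.4 and 106, against 77.8 and 56.6. The part of these markers in the MME, ANPEP, NPR3 and CPM levels of M1B26 CD10+ cells was not tested.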

How the data were processed

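RNA of MCF10A-CT, MC26 and M1B26 cells, sorted by membrane CD10 or unsorted, was labelled by 3' amplification and hybridised to 18 arrays. The deposited intensities were made by the authors with Affymetrix Expression Console and MAS5 (versions not given in the sources used here) and share a median of 16.65 per array, with upper quartiles of 95.1 to 124, so that no quantile normalization is present. The study's methods name RMA, which these values are not. All columns were used.

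Probe sets were named through GEO's platform annotation (54675 in all: 62 controls, 41091 with 1 gene, 1801 with several and 11721 with none), with 1 probe set per gene. Values were analysed as log2(intensity + 1), and genes with a mean at or under log2 3.93 (intensity 14.3) were left out. Differences were fitted in R 4.3.3 with limma 3.58.1 as 9 group means, using eBayes with an intensity trend. The degrees of freedom were 9 (residual) and 6.28 (prior), and tests were two-sided, with Benjamini-Hochberg adjustment within each of 20 contrasts and a threshold of 0.05. The fit was tested on simulated data. With 2 arrays a group, their number limits the precision: the median SE over genes ranged from 0.148 to 0.419 over the contrasts.

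Same-numbered CD10+ and CD10- arrays of a line deviated together from their group means (r = 0.635, 0.361 and 0.184 in MCF10A-CT, MC26 and M1B26), so a fit with each line-by-replicate pair as a block was run beside the main one. Sorted and unsorted arrays of 1 number gave r = -0.01 to 0.12, which is close to the 0.184 of M1B26. The pairing was thus clearest in MCF10A-CT and least clear in M1B26.

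The members were named always. Of each list of related genes, up to 4 called genes with the smallest p per contrast were eligible, and for each member the 3 genes with the highest correlation over the 9 group means. The members and lists were chosen with earlier results of these data known. Promoter windows came from RefSeq.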

Additional observations from a re-analysis of the deposited data

Results flagged for a closer look

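NPR3 was flagged because its CD10+ minus CD10- difference changed between lines by a test of that change itself (limma, Benjamini-Hochberg adjusted). The difference in M1B26 exceeded that in MC26 by 4.40 (adjusted p = 0.00115) and that in MCF10A-CT by 3.79 (adjusted p = 0.00392). Leaving out each array in turn gave 3.91 to 4.88 against MC26 and 3.30 to 4.27 against MCF10A-CT, and both stayed called in 18 of 18 such fits. With 2 arrays a group, no single array was tested for standing apart.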

How the results depend on the processing

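Calls are counts of members with an adjusted p under 0.05, over all comparisons of a kind. For CD10+ minus CD10- there were 2, and 4 in fits of the compared groups alone and 6 with the line-by-replicate pair as a replicate block on the sorted arrays. For differences between lines of the CD10 difference there were 0, and 2 with a pseudocount of 16, 1 in fits of the compared groups alone and 4 with the pairs as a block. Between unsorted lines there was 1, and 0 without the intensity trend. Between sorted and unsorted cells there was 1, and 2 with a pseudocount of 16, 2 with quantile normalization, 3 with arrays centred on the tested genes, 0 with the mean of all probe sets and 2 with the second brightest. Between lines within a sorted population there were 5, a count that no such setting moved by over 1.5 times. The members behind that count did change. With the second brightest probe sets ANPEP was not tested, since its second probe set lay under background. Under another setting ANPEP lost its calls, at 0.11 and -0.20 in CD10+ M1B26 minus MCF10A-CT and minus MC26 cells. In CD10- M1B26 minus MCF10A-CT cells it fell to 0.056. A replicate block on all arrays moved none of these counts. Leaving out each array in turn gave 0 to 1 between unsorted lines, 0 to 2 between sorted and unsorted cells and 5 to 7 between lines within a sorted population.

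Some differences changed sign. ERAP1 in CD10+ M1B26 minus MCF10A-CT cells was 0.16, but -0.14 with quantile normalization, -0.19 with centred arrays, -0.49 with the mean of all probe sets and -1.23 with the second brightest. ECE1 in sorted minus unsorted MCF10A-CT cells was -0.49, but 0.0017 with the mean of probe sets and 0.49 with the second brightest, and its average over lines -0.15, but 0.42 and 0.99. ECE1 in CD10+ MC26 minus MCF10A-CT cells was 0.44, but -0.022 with the second brightest. With the mean of probe sets, which adds the dim ones, ANPEP was -0.20 in CD10+ M1B26 minus MC26 cells and -0.038 in sorted minus unsorted M1B26 cells, and B2M was -0.10 in CD10+ M1B26 minus MC26 cells. The NPR3 average without M1B26, a setting chosen after seeing the data, was -0.046.

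Leaving out each array in turn, ECE1 spanned -2.23 to 0.015 for CD10 in MCF10A-CT, -0.69 to 1.56 for CD10+ MC26 minus MCF10A-CT, -1.05 to 0.073 for sorted minus unsorted MCF10A-CT, -0.17 to 0.80 for sorted minus unsorted M1B26 and -0.34 to 0.039 for its average, and ERAP1 spanned -0.053 to 0.37 for CD10+ M1B26 minus MCF10A-CT. The cause of these changes was not tested. The number of arrays, 2 a group, set the limit, and dim probe sets lie near an intensity of 14.3. Single-gene values under other settings were counted for member comparisons called in any fit and for list-gene comparisons called in the main fit. Genes of the lists that are not members could thus lose a call but not gain one. Of these values, 2055 kept direction and side of the threshold, 332 lost a call, 29 gained one and 20 changed sign.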
